A study of Mus musculus with 6 samples.

Results

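miR-122 and miR-33 are microRNAs (miRNAs), short RNAs that guide the silencing of matching mRNAs, and both are known as regulators of lipid metabolism. They were followed here in bone-marrow-derived macrophages by the names of their mature forms, the 5p and 3p arms that are cut from the opposite sides of each hairpin precursor. This gives 4 mature mouse miRNAs, named mmu-miR-122-5p, mmu-miR-122-3p, mmu-miR-33-5p and mmu-miR-33-3p in the tables and written here without the species prefix, of which 3 had reads, among 911 mature miRNA references with reads in the series. The rule picked them by name and used no measured value, but it was set with earlier results of these data known. The series compared ApoE-knockout mice (labelled ApoE-KO, here EKO, 3 libraries) with wild-type mice (WT, 3 libraries). All were male and 6 to 12 weeks old, and their strain is not given in the sources used here. Marrow cells of every mouse were grown in medium with 10% fetal bovine serum and given macrophage colony-stimulating factor (M-CSF) at 25 ng/mL every 2 days for 6 days, so both groups share serum and M-CSF. Small RNA was sequenced to between 34651516 and 41331600 reads on mature miRNAs per library. Apoe mRNA is not measured by these tables, so the genotype labels were not checked by the targeted gene.

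miR-122 is the main miRNA of hepatocytes, where it sustains the expression of genes of cholesterol and fatty acid synthesis, and its inhibition lowers plasma cholesterol in animals. miR-33 is encoded inside Srebf2, the gene of SREBP-2, the transcription factor that turns on cholesterol synthesis and uptake when sterols are scarce. In macrophages miR-33-5p is known to repress ABCA1, the membrane transporter that hands cellular cholesterol to lipid-poor apolipoproteins. ApoE, the protein missing in the knockout, is itself secreted by macrophages and carries cholesterol away from them.

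The miR-33 hairpin lies on the plus strand at chr15:82198122-82198190 (GRCm38.p6), within intron 16 of the 18 introns of a coding Srebf2 transcript (GENCODE M21), 335 bases past the exon before it and in no exon of that transcript. RefSeq's miRNA table held 2 of the 4 names. The hairpin is shown first, with both mature arms in capitals, because the 2 arms differ in how they were sampled here. The arms follow with the seed (bases 2 to 8, which pair with target mRNAs) in capitals.
mir-33 hairpin: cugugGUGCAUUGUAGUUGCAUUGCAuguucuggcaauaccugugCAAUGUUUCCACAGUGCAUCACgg
miR-33-5p: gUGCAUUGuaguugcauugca
miR-33-3p: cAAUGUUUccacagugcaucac
The arms have different seeds, and of 1679 mature names in the table no other shares either of them. The letters of the 5p seed occur a second time within miR-33-5p, at bases 13 to 19. For every member the total read count equalled the count after reads matching several references had been divided, in all 6 libraries, so none of their reads was shared with another miRNA.

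miR-122-5p was the only well-sampled member, and its level was higher in every EKO library than in any WT library, without passing the test over all miRNAs. Its level was 154, 101 and 102 CPM (the read count scaled to a library total of 1000000 reads on mature miRNAs) in EKO replicates 1, 2 and 3, and 58.8, 49.4 and 47.2 CPM in the WT replicates. The groups did not overlap, with EKO replicate 1 standing above the other 2 EKO libraries, which were nearly level. The means were 119 ± 30.0 CPM in EKO and 51.8 ± 6.17 CPM in WT (SD, n = 3 each), a ratio of 2.30. The log2 fold change was 1.24 ± 0.25 (SE), and the edgeR quasi-likelihood test gave an adjusted p of 0.0766 (Benjamini-Hochberg, over 575 miRNAs). That adjusted p was the smallest of the fit and was shared by 20 miRNAs. In a two-sided exact permutation test of the CPM the p was 0.1, the smallest that 3 against 3 libraries allow. In a bulk culture, a change per cell and a change in the share of cells that carry a miRNA cannot be told apart.

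**Figure D1:**
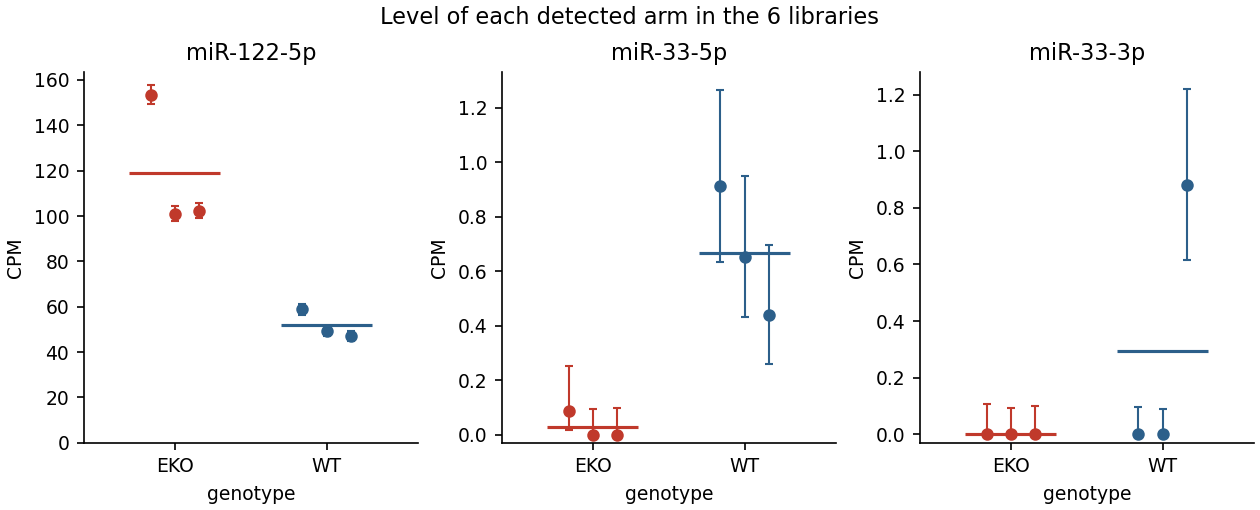
CPM of the 3 arms with reads, by genotype on the x axis, with a point per library (replicates 1 to 3 from left to right), an exact 95% binomial interval for read counting only, and a horizontal line at the mean of 3 libraries. The miR-122-5p points lie between 101 and 154 CPM in EKO and between 47.2 and 58.8 CPM in WT, whereas miR-33-5p and miR-33-3p stay under 1 CPM in every library.

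The call for miR-122-5p was near the threshold and moved with the choice of fit, while its direction did not. At an adjusted p under 0.05 the edgeR test called 0 members of the 2 that it tested, where it called 0% of all 575. At an unadjusted p under 0.05 the same test had 48 miRNAs higher in EKO (8.35%) and 75 lower (13%), and miR-122-5p was among the higher ones. DESeq2 called 43 miRNAs higher (7.48%) and limma-voom 9 (1.57%), and both called miR-122-5p (adjusted p = 0.000138 and 0.0410). When the edgeR fit was limited to the 251 miRNAs averaging at least 10 CPM, 27 were called higher (10.8%), with miR-122-5p at an adjusted p of 0.0231 in edgeR. It was also called by edgeR with no low-count filter (2.64% of all called higher), with the replicate number as a block (4.52%) and without EKO replicate 3 (2.52%). By size, 52 of the 575 miRNAs had a larger log2 fold change than miR-122-5p in the fit over all of them, and 6 of these 52 were among the 251 averaging at least 10 CPM. For 11.8% of the 575 all 3 EKO values lay above all 3 WT values, so that order alone was not particular to miR-122-5p. Without EKO replicate 1 its log2 fold change was 0.97 ± 0.21 (SE, adjusted p = 0.156, edgeR quasi-likelihood test).

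**Figure D2:**
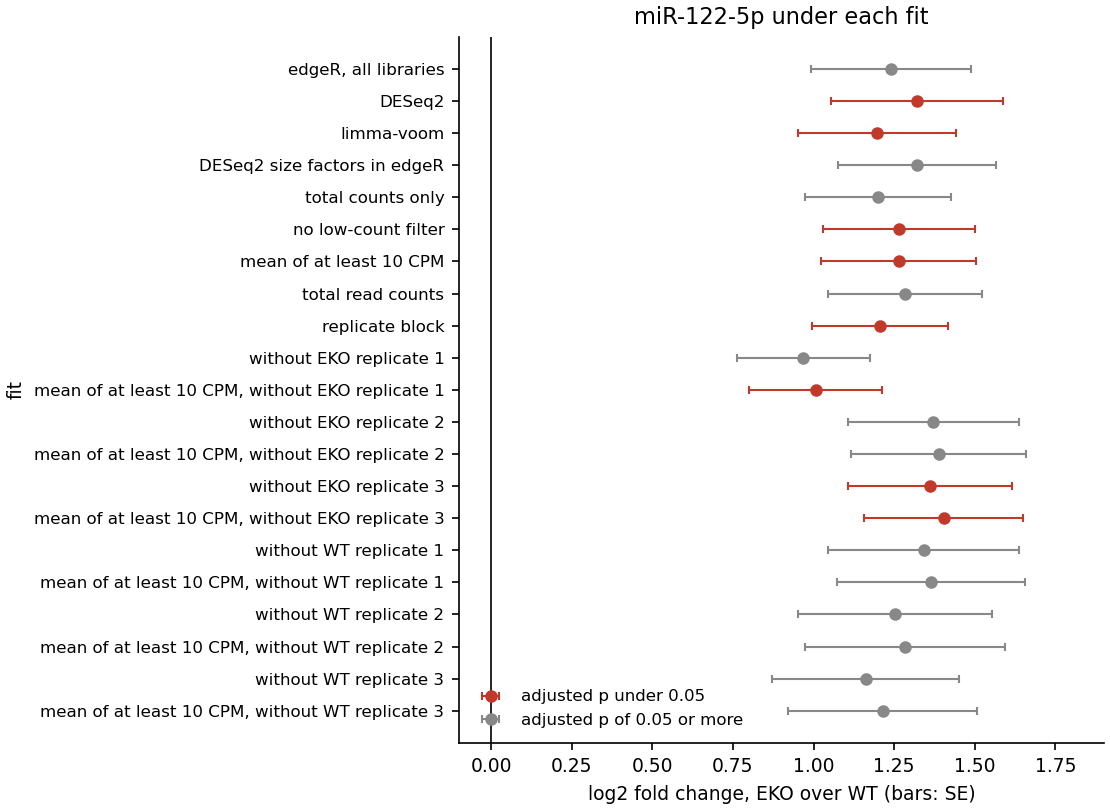
Log2 fold change of miR-122-5p, EKO over WT, on the x axis with its SE as a bar, for each fit on the y axis; red points have an adjusted p under 0.05. All fits place it between 0.97 and 1.40, and red and grey points cover the same range.

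The higher read count of miR-122-5p in EKO came with only slightly more distinct read sequences. The deposited tables give the number of different sequences behind each count, which were 74, 65 and 73 in the EKO libraries and 67, 62 and 53 in the WT libraries. These groups overlapped (70.7 ± 4.93 against 60.7 ± 7.09, SD, n = 3 each, two-sided exact permutation p = 0.2). Each distinct sequence therefore stood for 71.9, 61.4 and 52.0 reads in EKO and for 33.7, 33.0 and 36.4 in WT. Other miRNAs with reads within 1.5-fold of those of miR-122-5p in the same library had a median of 95, 86 and 86 distinct sequences in EKO and 70, 67.5 and 68 in WT. All 6 libraries lay below that median, the EKO libraries by 21, 21 and 13 sequences and the WT libraries by 3, 5.5 and 15. Still, miR-122-5p lay within the spread of these miRNAs. Fewer distinct sequences were seen for 21.4%, 12.9% and 36.7% of them in EKO and for 43.6%, 44.2% and 16.3% in WT. Molecular barcodes were at 0 in every table, so PCR copies were not removed. The part that copying had in the level of miR-122-5p was not tested.

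miR-122-3p, the opposite arm, had no read in any library. Against the 19347 reads of miR-122-5p over the 6 libraries, a count of 0, with its limit taken as 3 reads, allows the 3p arm a share of up to 0.0155% of the reads on both arms, and the upper end of the exact 95% binomial interval was 0.0191%. Within a library 3 reads equal 0.0726 to 0.0866 CPM.

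miR-33-5p was close to the detection limit and was seen mainly in WT. It had 3, 0 and 0 reads in the EKO libraries and 35, 27 and 18 in the WT libraries, with no overlap between the groups. On the CPM scale this was 0.0866, 0 and 0 in EKO and 0.911, 0.653 and 0.440 in WT. Exact 95% binomial intervals, which cover counting error only, reached from 0.0179 to 0.253 CPM in EKO replicate 1 and from 0.261 to 0.695 CPM in WT replicate 3, the lowest WT library, so that these intervals were apart. Taken as 3 reads, the limit that a count of 0 allows was 0.0759 CPM in EKO replicate 2 and 0.0809 CPM in EKO replicate 3, and the upper ends of their exact 95% intervals were 0.0933 and 0.0995 CPM. The means were 0.0289 ± 0.05 CPM in EKO and 0.668 ± 0.236 CPM in WT (SD, n = 3 each, two-sided exact permutation p = 0.1, the smallest possible).

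The fold difference of miR-33-5p was poorly determined. The summed reads, 3 in EKO and 80 in WT, gave a WT level 24.6 times that of EKO, with a 95% interval of 8.12 to 122 for counting error alone. Like the intervals of single libraries, it takes reads as independent although PCR copies were not removed, so it may be too narrow. The fitted log2 fold change was -4.33 ± 2.15 (SE), and edgeR's quasi-likelihood test gave an adjusted p of 0.315. It passed the filter on low counts only through the WT libraries, so that a tested miR-33-5p had to show a lower EKO value. Groups lying apart in the same direction were seen for 17.7% of the tested miRNAs.

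Few sequences stood behind these reads. The WT counts of miR-33-5p rested on 2, 3 and 1 distinct sequences, and the EKO count on 1. Other miRNAs with similar reads had a median of 3, 3 and 2 in those WT libraries, so the thin sampling was shared by the miRNAs of this level. Fewer mature miRNAs were detected in EKO as a whole, 543 to 591 per library against 668 to 698 in WT. Of 115 miRNAs that were read in every WT library at a WT mean of 0.2 to 2 CPM, 52 (45.2%), miR-33-5p among them, were read in at most 1 EKO library. In the other direction, of 42 miRNAs read in every EKO library at an EKO mean of 0.2 to 2 CPM, 1 (2.38%) was read in at most 1 WT library. The near absence of miR-33-5p from EKO was therefore shared with many miRNAs of its level, and the part of this general difference in detection in its value was not tested.

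miR-33-3p, whose targets include genes of lipid handling shared with miR-33-5p, was read in a single library. WT replicate 3 held 36 reads (0.880 CPM, exact 95% binomial interval 0.616 to 1.22), all of 1 sequence, and the other 5 libraries held none. The 96 other miRNAs with similar reads in that library had a median of 4 distinct sequences and a lowest value of 1. In that library the 3p arm took 66.7% of the reads on both arms, whereas the 3 other libraries with reads of miR-33-5p had none of the 3p arm, and EKO replicates 2 and 3 had neither arm. It did not pass the filter on low counts, and the exact permutation p was 1 (two-sided).

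**Figure D3:**
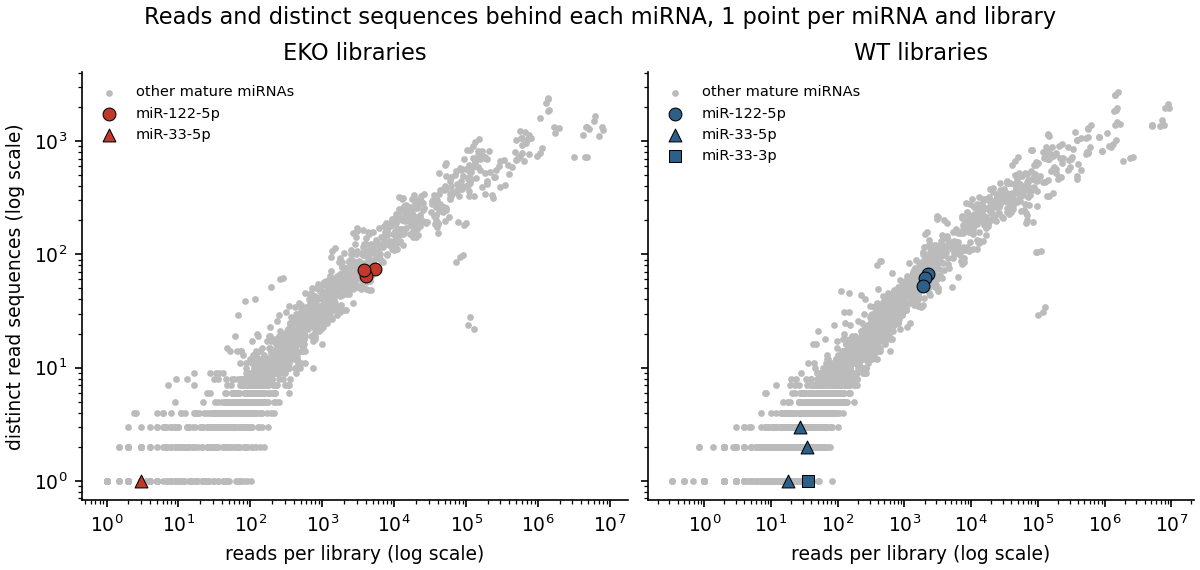
Distinct read sequences against reads per library, both on log scales, with a grey point for each mature miRNA in each library and larger symbols for miR-122-5p, miR-33-5p and miR-33-3p. miR-122-5p lies 13 to 21 sequences below the median of miRNAs with similar reads in EKO and 3 to 15 below it in WT, ranges that overlap, and both miR-33 arms lie at 1 to 3 sequences.

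Other miRNAs that are known to act on lipid handling mostly had lower values in EKO, unlike miR-122-5p, and edgeR called none. Of 43 such miRNAs besides the 4 members, 38 references were tested. At an adjusted p under 0.05 edgeR called 0 of them, DESeq2 called 2 higher and 12 lower (7.48% and 8.52% of all), and limma-voom 1 higher and 8 lower (1.57% and 4%). Their values were lower in EKO for 32 and higher for 6 (29 and 9 with the size factors of DESeq2), where 335 of all 575 were lower and 240 higher, the background for the shorter lists as well. Their median log2 fold change was -0.54, against -0.16 for all 575. At an unadjusted p under 0.05 there were 17 lower and 2 higher, where 13% and 8.35% of all 575 were. Groups without overlap were seen for 18 lower and 2 higher, where 17.7% and 11.8% of all 575 had them. These lists were drawn up with results of these libraries known, so that their direction is no independent evidence.

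Among 21 tested miRNAs known to act on cholesterol efflux through ABCA1 or ABCG1, the function of miR-33-5p, 16 had lower and 5 had higher values (median log2 fold change -0.30). Here miR-93-5p, a member of the miR-106b-25 cluster, stood at 337, 400 and 475 CPM in the EKO replicates and at 660, 563 and 856 CPM in the WT replicates. miR-19b-3p, of the miR-17-92 family of clusters, stood at 16.2, 29.1 and 22.0 CPM in the EKO replicates and at 67.1, 57.9 and 84.2 CPM in the WT replicates. Both had EKO values below all WT values, as did 17.7% of all 575 tested miRNAs. On the higher side, miR-148a-3p, which is known to target the transcripts of ABCA1 and the LDL receptor, stood at 136965, 112432 and 85928 CPM in the EKO replicates and at 62624, 65264 and 45642 CPM in the WT replicates. miR-128-3p stood at 5200, 4689 and 5582 CPM in the EKO replicates and at 4316, 4504 and 4338 CPM in the WT replicates. These 2 were the only tested lipid miRNAs beside miR-122-5p with higher EKO values at an unadjusted p under 0.05.

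Of 14 tested miRNAs tied to lipoprotein uptake, 11 had lower and 3 had higher values (median log2 fold change -0.66). The efflux, uptake and assembly lists share members, so their counts are not independent. For example, miR-148a-3p, miR-128-3p and miR-19b-3p are in both the efflux and the uptake list. The lower ones included miR-125a-5p, known to act on oxidised-LDL uptake in macrophages, at 87.5, 82.7 and 187 CPM in EKO and 343, 257 and 439 CPM in WT. They also included miR-21a-5p, with log2 fold change -0.50 ± 0.09 (SE). Of 15 tied to lipoprotein assembly and lipid synthesis, the processes that miR-122 sustains in liver, 14 had lower values (median -0.49), among them miR-378a-3p with nearly equal means (3504 and 3571 CPM). miR-30c-5p, a repressor of Mttp, whose product loads triglyceride onto lipoproteins, stood at 549, 639 and 909 CPM in the EKO replicates and at 1218, 1133 and 1694 CPM in the WT replicates. Its EKO values all lay below its WT values, as did those of 17.7% of all 575 tested miRNAs.

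The sequences of 4 of these miRNAs, with the seed in capitals, are shown to compare them with miR-33-5p, since they too are credited with targets in lipid handling. They are from RefSeq (GRCm38.p6).
miR-148a-3p: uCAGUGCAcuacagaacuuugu
miR-128-3p: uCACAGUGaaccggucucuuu
miR-19b-3p: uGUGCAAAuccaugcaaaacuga
miR-30c-5p: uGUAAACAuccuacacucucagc
None of the 4 seeds is that of either miR-33 arm. miR-148a-3p is encoded at chr6:51269829-51269850 on the minus strand, and the other 3 at 2 genes each.

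**Figure D4:**
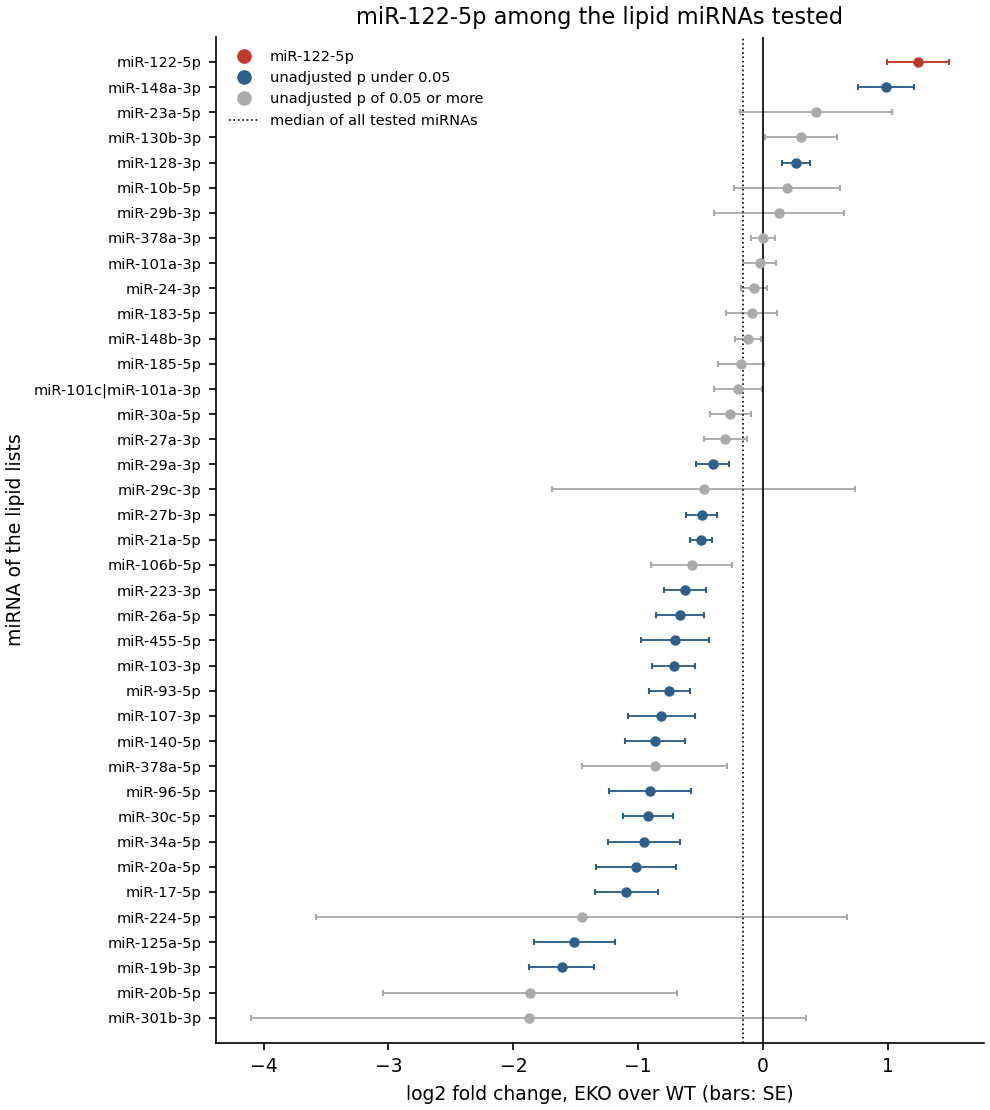
Log2 fold change, EKO over WT, with its SE as a bar, for each tested miRNA of the lipid lists, in order of value. miR-122-5p (red) lies at the top at 1.24, most others lie left of 0, and the dotted line marks the median of all tested miRNAs at -0.16; miR-33-5p, at -4.33 ± 2.15, is left out for scale.

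miRNAs of other tissues were read beside miR-122-5p, because it is a hepatocyte miRNA found in cultured macrophages. All 10 macrophage and myeloid miRNAs had reads, among them miR-142a-3p, at 573 to 914 CPM in EKO and 868 to 1201 CPM in WT. The macrophage miR-511-3p, from an intron of Mrc1, stood at 0, 0 and 0.674 CPM in EKO and at 0.442, 0.532 and 1.37 CPM in WT, with overlap. Its opposite arm, miR-511-5p, stood at 1.62, 0.0759 and 0.378 CPM in EKO and at 4.53, 6.73 and 6.04 CPM in WT. The edgeR test called neither (adjusted p = 0.788 and 0.189). The 10 summed to between 144092 and 172618 CPM in EKO and between 217242 and 230118 CPM in WT (two-sided exact permutation p = 0.1, 0.32 adjusted over 8 lists). Nearly all of it was miR-21a-5p, and 8 of 10 had lower values in EKO. The myeloid miR-223-5p was among the higher 2, at 2761 ± 107 CPM in EKO and 2042 ± 106 CPM in WT (SD, n = 3 each).

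Of 5 other liver miRNAs 4 had reads, and they summed to 343 to 413 CPM in EKO and 328 to 379 CPM in WT. These ranges overlapped (two-sided exact permutation p = 0.2, 0.32 adjusted over 8 lists). miR-192-5p, which gut and kidney also express, made up most of the sum, at 339, 387 and 383 CPM in EKO and 308, 362 and 315 CPM in WT. miR-194-5p had lower mean values in EKO (12.2 ± 9.95 against 17.2 ± 4.06 CPM, SD, n = 3 each), and miR-802-5p had no read.

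Blood markers went both ways in EKO, and the muscle markers with reads had higher means there, as miR-122-5p did. miR-451a, the defining miRNA of red cells, had EKO levels of 5.92, 5.31 and 1.29 CPM and WT levels of 0, 0 and 0.587 CPM, with no overlap. It passed the filter on low counts mainly through EKO, which favoured this order. Groups lay apart in that direction for 11.8% of all 575 tested miRNAs. The whole erythroid list, of which miR-144-3p and miR-144-5p had no read, summed to 127 to 172 CPM in EKO and 133 to 177 CPM in WT, ranges that overlap, because the joint entry of miR-486a-5p and miR-486b-5p made up most of it (125 ± 13.4 CPM in EKO and 140 ± 17.2 CPM in WT, SD, n = 3 each). The joint entry of the opposite arms miR-486b-3p and miR-486a-3p had means of 16.1 and 10.8 CPM, with overlap. A separate entry of miR-486b-3p alone had means of 0.291 and 0.637 CPM, also with overlap. Of the 4 tested erythroid entries, 2 had higher and 2 had lower values in EKO. The muscle miRNA miR-1a-3p stood at 6.61, 25.1 and 2.80 CPM in the EKO replicates and at 3.23, 0.653 and 0.978 CPM in the WT replicates, with overlap, and 6 of 8 muscle miRNAs had no read. miR-206-3p, the other muscle miRNA with reads, averaged 0.125 CPM in EKO and 0.00867 CPM in WT, and did not pass the filter on low counts. That WT mean lies below the level that 3 reads equal in a library (0.0726 to 0.0866 CPM). The muscle list summed to 2.83 to 25.3 CPM in EKO and 0.653 to 3.25 CPM in WT. The edgeR test called neither miR-451a nor miR-1a-3p (adjusted p = 0.260 and 0.147). Their part in the higher miR-122-5p was not tested. Of the lists of neuronal and endocrine, epithelial, stromal and lymphoid miRNAs, only the lymphoid sums lay apart between the groups. They were 537 to 649 CPM in EKO and 728 to 846 CPM in WT (two-sided exact permutation p = 0.1, 0.32 adjusted over 8 lists). That list was led by miR-181b-5p (means of 290 and 406 CPM in EKO and WT) and miR-181a-5p (254 and 315 CPM). Of its 4 tested entries, 3 had lower values in EKO and 1 had a higher value. The stromal sum was carried by miR-140-3p (3680 and 3559 CPM), while 4 of the 6 tested stromal entries had all EKO values below all WT values (17.7% of all 575), with a median log2 fold change of -0.95 over the 6. These were miR-140-5p (175 and 324 CPM), miR-143-3p (88.7 and 187 CPM), miR-199a-5p (0.598 and 3.76 CPM) and the joint entry of miR-199a-3p and miR-199b-3p (1.99 and 10.3 CPM), none of which edgeR called. Both miR-199 entries passed the filter on low counts mainly through WT, which favoured this order. The 2 other tested stromal entries, miR-140-3p and miR-214-3p (1.19 and 0.104 CPM), had higher means in EKO, with overlap. The part of the stromal and lymphoid miRNAs in the results for miR-122 and miR-33 was not tested. The epithelial list was led by miR-200b-3p (86.4 and 87.2 CPM) and miR-200c-3p (49.6 and 48.2 CPM), and the neuronal and endocrine list by miR-7b-5p (43.1 and 39.5 CPM) and miR-129-5p (15.04 and 24.2 CPM). miR-124-3p and miR-375-3p, defining miRNAs of neurons and endocrine cells, had no read.

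The miRNAs most like miR-122-5p in pattern were miR-151-3p, miR-8103, miR-1981-5p, miR-148a-3p and miR-574-5p. Likeness was the root mean square distance between log2(CPM + 0.5) values centred on their mean over the 6 libraries, taken over 250 other miRNAs averaging at least 10 CPM. The distances of the 5 ran from 0.19 to 0.24 on the log2 scale, where the median of the 250 was 0.72. miR-151-3p stood at 23308, 18804 and 13415 CPM in the EKO replicates and at 9998, 9435 and 6878 CPM in the WT replicates. miR-8103 stood at 208, 94.6 and 118 CPM in the EKO replicates and at 61.2, 57.4 and 42.3 CPM in the WT replicates. Their own log2 fold changes ran from 0.78 for miR-574-5p to 1.43 for miR-8103. The nearest miRNAs were found by the same 6 values that set the genotypes apart, so the shared order of the genotypes or of single libraries among them is no finding.

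**Figure D5:**
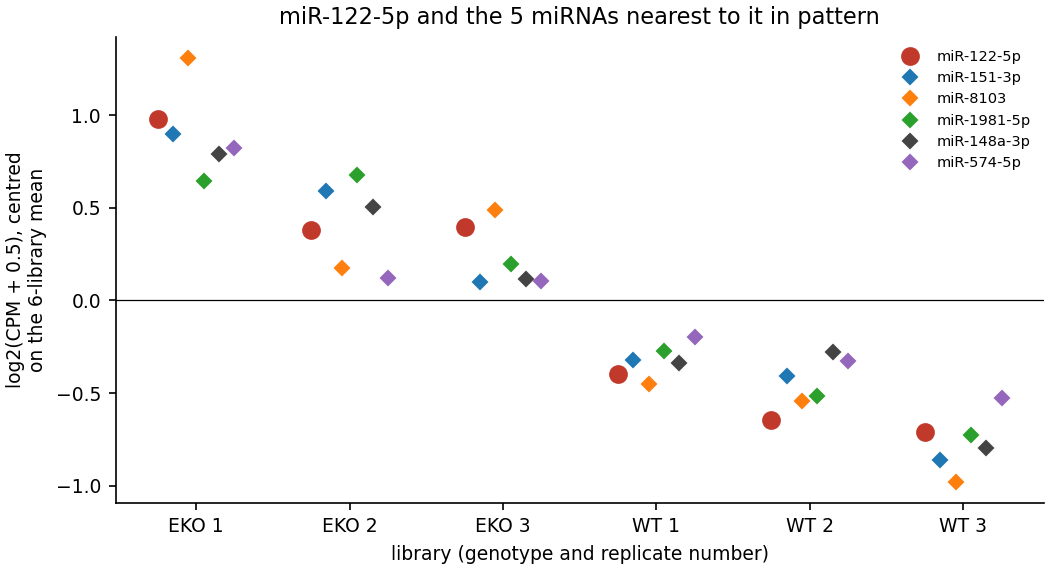
Log2(CPM + 0.5), centred on the mean of the 6 libraries, on the y axis for miR-122-5p and the 5 miRNAs nearest to it, by library on the x axis. All 6 miRNAs lie above 0 in the 3 EKO libraries and below 0 in the 3 WT libraries.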

How the data were processed

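Small RNA from 6 macrophage cultures (3 EKO, 3 WT) was counted by the authors. The deposited tables give, per the file headers, counts of distinct read sequences and of total reads, an estimated count that splits reads with several matching references, and a barcode count that was 0 throughout, another value that was not used. Total RNA was taken on Qiagen RNeasy Mini columns and NEB's small RNA kit gave the libraries, per the labels' protocols. Such columns can lose small RNA, and ligation favours some sequences, so different miRNAs share no common scale. The submitters' processing notes name mm9 as the build; the aligner and the counter are not stated in these sources.

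Stem-loop references were left out and missing references were 0. CPM is the estimated count per 1000000 reads on mature miRNAs of a library. Estimated counts rounded to whole numbers were fitted with edgeR 4.0.16 (R 4.3.3; TMM, filterByExpr by genotype, quasi-likelihood test, Benjamini-Hochberg over all tested, threshold 0.05), checked on simulated data. Alternatives were DESeq2 1.42.0, limma-voom (limma 3.58.1), DESeq2 size factors, no TMM, a mean of at least 10 CPM, no filter on low counts, total read counts, the replicate number as a block, and each library left out in turn. The members, lists and tests were chosen with earlier results of these data known. The miRNAs named are the 4 members, up to 5 lipid miRNAs per direction with the smallest p under 0.05, the 5 nearest in pattern, and the 2 highest of each marker list. Others were named after their values were seen: miR-378a-3p, miR-142a-3p, miR-511-3p, miR-511-5p, miR-451a, the single entry of miR-486b-3p, miR-143-3p, miR-199a-3p, miR-199a-5p, miR-214-3p and markers without reads. The series states that replicates are biological.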

Additional observations from a re-analysis of the deposited data

How the results depend on the processing

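The log2 fold change of miR-122-5p was positive in all 20 other fits, from 0.97 to 1.40, with adjusted p from 0.000138 to 0.285. Of the 14 planned fits it passed in 6: DESeq2 (1.32), limma-voom (1.20), no low-count filter (1.27), a mean of at least 10 CPM (1.26), the replicate block (1.21, adjusted p = 0.00268) and without EKO replicate 3 (1.36). With a mean of at least 10 CPM and 1 library left out, a combination chosen after seeing the data, it passed without EKO replicate 1 (1.01) and without EKO replicate 3 (1.40) and in none of the other 4. Leaving out 1 library gave 0.97 to 1.37, and 1.01 to 1.40 with that filter. miR-33-5p had log2 fold changes of -7.73 to -3.76 in the 13 fits that could test it and passed in none (adjusted p from 0.146 to 0.536); since the filter on low counts keeps it only through WT, its direction in these fits is no sign of stability; a mean of at least 10 CPM gave it no value. The difference of miR-33-3p, EKO minus WT, was -0.293 CPM, and -0.440 to 0 CPM with 1 library left out, at 0 without WT replicate 3. The fits gave miR-122-3p no value, and miR-33-3p one only without the low-count filter (adjusted p = 0.408, edgeR).

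Where edgeR called 0 higher and 0 lower, there were 43 and 49 calls with DESeq2 (which gave 11 miRNAs no adjusted p), 9 and 23 with limma-voom, 24 and 28 with no filter, 27 and 32 at a mean of at least 10 CPM, and 26 and 36 with the replicate block; leaving out 1 library gave 0 to 16 and 0 to 29, all of them without EKO replicate 3. Of the lipid miRNAs besides the members, 2 and 12, 1 and 8, 1 and 12, 1 and 13, and 1 and 12 were called in the same order, and 0 to 1 and 0 to 11 with 1 library left out. For libraries with equal replicate numbers, the deviations from group means correlated at -0.123, -0.0431 and -0.0361. These values weigh all tested miRNAs equally, low counts included, so they show no pairing but cannot exclude it. The summed erythroid difference, -6.67 CPM, ran from -20.1 to 5.83 CPM with 1 library left out (2.71 without EKO replicate 2). The epithelial one, -1.56 CPM, ran from -18.0 to 15.5 CPM, and was 0.281 CPM with TMM scaling and 2.09 CPM without WT replicate 2; the cause was not tested. Depth limits the miR-33 arms and miR-122-3p, where a count of 0, taken as 3 reads, still allows up to 0.0866 CPM in the shallowest library.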
